A study of Homo sapiens with 10 samples.

Results

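The effect of knocking out TET1 was set against the effect of adding TET1 in H441, an established human lung adenocarcinoma line of epithelial type. The contrast was, for each gene, the log2 fold change of knockout over wild type minus the log2 fold change of overexpression over its control, and it used all 10 of the 10 libraries. The knockout libraries (KO, n = 3) came from H441 cells whose TET1 gene had been knocked out with CRISPR-Cas9, and their wild-type counterparts (WT, n = 3) were untreated H441 cells. The overexpression libraries (OE, n = 2) came from H441 cells transiently transfected with a plasmid for full-length human TET1, and 2 further libraries, titled Lipo and labelled as untreated wild type, were used as their control. The labels explain neither the word Lipo nor the promoter of the plasmid, the time after transfection, or whether the knockout was 1 clone. All cells were grown in serum-containing medium, and total RNA was sequenced. The KO libraries therefore come from an edited line and the OE libraries from transiently transfected cells. The 2 effects thus differ in kind as well as in the intended direction of the TET1 change. Below, a gene is said to have changed in 1 comparison alone when it passed there, did not pass in the other and passed in the difference.

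TET1 is a dioxygenase that oxidises 5-methylcytosine in DNA, the first step towards removing the mark, and it also acts in chromatin complexes through parts outside its catalytic domain. Methylated promoters are often silent, and the study concerns TET1 as a restraint on lung adenocarcinoma through chromatin and immune genes. The lung adenocarcinoma epithelium expresses surfactant and keratin genes, and, like other epithelial cells, it can turn on interferon-stimulated, antigen presentation and chemokine genes in response to interferon.

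TET1 RNA separated OE from all other libraries and did not separate KO from WT. TET1 (ENSG00000138336, chromosome 10, 68560656 to 68694482, GRCh38) had 4, 0 and 8 reads in KO 1 to 3, against 2, 7 and 0 reads in WT 1 to 3. It had 17883 and 20805 reads in OE, against 0 and 1 reads in Lipo 2 and 3. TET1 thus had few reads in KO, WT and Lipo alike, and the counts show a change in TET1 RNA only in OE. At this depth no difference in TET1 RNA between KO and WT could be detected (edgeR adjusted p = 0.813), and counts per gene do not report on a small edit. The related enzymes did not pass the difference test either. TET2 stood at 33.7, 40.0 and 22.9 CPM in KO, against 34.5, 34.6 and 30.0 CPM in WT, and 33.2 and 36.1 CPM in OE, against 28.1 and 27.3 CPM in Lipo (difference -0.36, SE 0.27, edgeR adjusted p = 0.413). The difference of TET3 was -0.31 (SE 0.24, edgeR adjusted p = 0.419). Total counts ran from 20994462 to 25981097 per library. All 12 epithelial marker genes had at least 10 reads in every group. Of 9 fibroblast markers, 2 were tested (COL1A1 and LUM), and both belong to the genes lower in KO and higher in OE described below. The summed level of the 2 was 70.9 to 77.5 CPM in KO, 177 to 289 CPM in WT, 343 to 351 CPM in OE and 169 to 183 CPM in Lipo. Of the 9, 5 had no reads in KO, 5 none in WT, 6 none in OE and 5 none in Lipo, and PDGFRA, PDGFRB, DCN and THY1 had none in any library. The 10 immune cell markers summed to 0.75 to 2.08 CPM in KO, 1.67 to 2.63 CPM in WT, 6.25 to 7.20 CPM in OE and 1.96 to 2.37 CPM in Lipo, and MS4A1 and NKG7 had no reads in any library. The part of either set of markers in the results was not tested. Since the RNA is from whole cultures, fewer cells of a kind and less RNA per cell cannot be told apart.

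More genes moved in opposite directions than in the same direction. Of 15832 genes tested, 430 passed the test in both comparisons, and 296 of these (68.8%) had opposite signs while 134 (0.846% of the genes tested) had the same sign. The opposite genes were 123 higher in KO and lower in OE (0.777% of the genes tested) and 173 lower in KO and higher in OE (1.09%). The others were 46 higher in both (0.291%) and 88 lower in both (0.556%). For comparison, 1992 genes (12.6%) passed in KO minus WT, of which 812 were higher (5.13%) and 1180 lower (7.45%), and 1950 (12.3%) passed in OE minus Lipo, of which 1075 were higher (6.79%) and 875 lower (5.53%). The difference itself passed for 2632 genes (16.6%), 1133 of them with a higher KO effect (7.16%) and 1499 with a lower one (9.47%), and it reached 2-fold in 1714. All 296 opposite genes passed the difference, which their class largely fixes, and 27 of the 134 others did. These counts leaned on single libraries: with OE 1, OE 2, Lipo 2 or Lipo 3 left out, 124, 135, 137 and 122 genes were opposite and 42, 46, 54 and 46 the same, and the difference passed for 1426, 1532, 1446 and 1373. Without WT 2, 179 were opposite and 73 the same, without WT 3, 216 and 75, and without WT 1, 371 and 208. Opposite genes outnumbered the others in each of the 10 fits that leave out 1 library. With WT as control of OE too, so that both comparisons share the WT libraries, 344 genes were opposite, 208 of them among the 296, and 305 were the same.

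**Figure D1:**
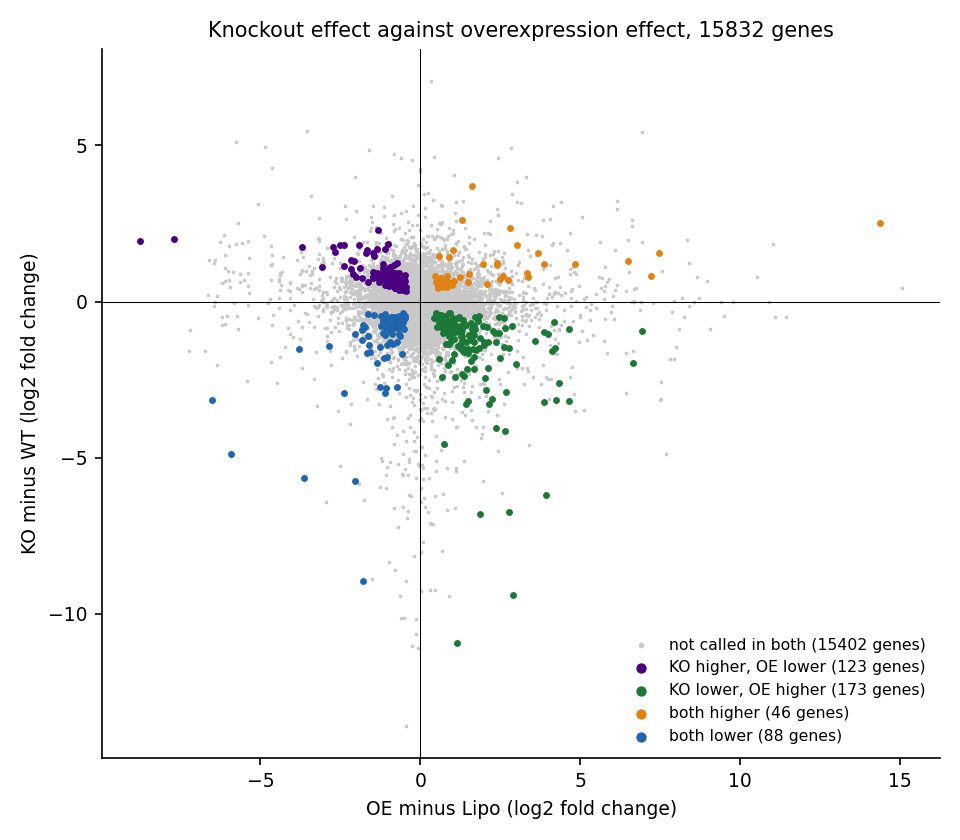
Log2 fold change of KO minus WT (vertical axis) against that of OE minus Lipo (horizontal axis) for 15832 genes, with the genes that passed in both comparisons coloured by direction. The 173 genes lower in KO and higher in OE (lower right) and the 123 higher in KO and lower in OE (upper left) outnumber the 46 and 88 that moved the same way, and the values of genes without reads in a group depend on the fit's prior count.

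The overlap was uneven in both directions. Of the 812 genes higher in KO, 15.1% were lower in OE, a call made for 5.53% of all genes, and 5.67% were higher in OE, against 6.79% of all genes. Of the 1180 genes lower in KO, 14.7% were higher in OE, against 6.79% of all genes, and 7.46% were lower in OE, against 5.53%. Seen from the other list, 14.1% of the genes lower in OE were higher in KO and 10.1% were lower in KO, and 16.1% of the genes higher in OE were lower in KO and 4.28% were higher in KO. Across all genes the log2 fold changes of both comparisons had a Pearson r of -0.066 and a Spearman rho of -0.115, and 54.1% of genes had estimates of opposite sign. These are descriptions across genes, which are not independent replicates, and the comparisons share no library but share 1 estimate of the spread. The spread between libraries of a group was unequal. Relative to counting error (chi-square per degree of freedom) it was 39.7 to 65.4 in KO and 6.36 to 46.6 in WT. It was 4.83 in OE and 6.16 in Lipo. Numbers of calls in KO and in OE are therefore not a comparison of the size of the 2 effects.

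**Figure D2:**
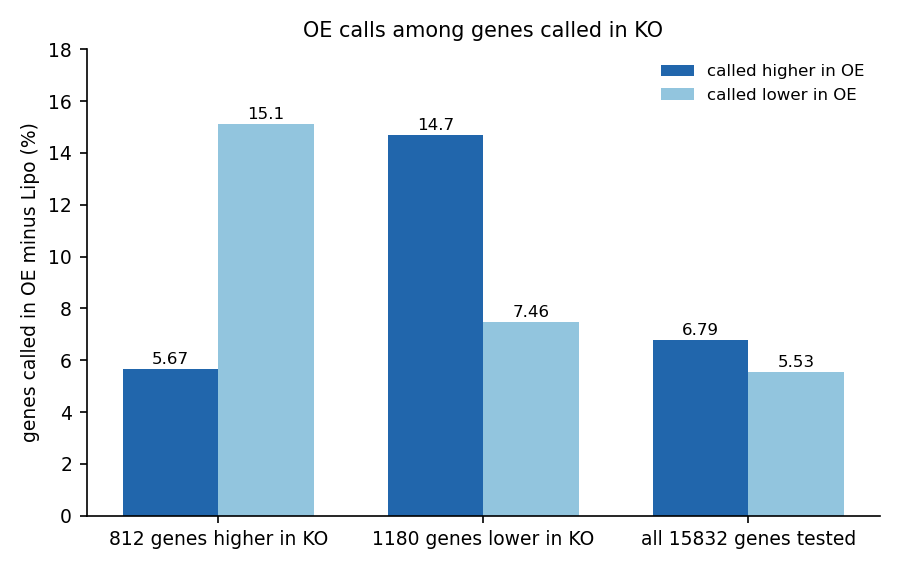
Percentage of genes called higher (dark bars) or lower (light bars) in OE minus Lipo, among the 812 genes higher in KO, the 1180 genes lower in KO and all 15832 genes tested. The opposite call is the more frequent one in both KO groups, at 15.1% and 14.7%.

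The groups separated along 2 axes. In a principal component analysis of the 500 most variable genes, the first axis (58.5% of the variance) put KO at -35.9 to -33.8 and OE at 51.8 to 53.2, with WT at -2.7 to -1.0 and Lipo at 2.2 to 2.5 between them. The second axis (25.3%) put KO and OE on the same side, at 18.4 to 21.9 and 19.2 to 20.4, against WT at -20.8 to -18.5 and Lipo at -20.6 to -19.6. KO and OE thus lay on opposite sides of their controls on the first axis and on the same side on the second. The axes were drawn from these same libraries and from genes picked for their variance. With WT and Lipo close together, 2 unrelated effects could be placed in this way too, so the axes do not test for opposite movement.

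Since the contrast holds both controls, a gene whose level differs between Lipo and WT enters it through the choice of control. Lipo minus WT passed for 586 genes (3.70%), 209 higher (1.32%) and 377 lower (2.38%). Among the 123 genes higher in KO and lower in OE, 9 were higher and 3 lower in Lipo than in WT, and the estimate lay above WT for 83 (median 0.17). Among the 173 genes lower in KO and higher in OE, 3 were higher and 34 lower in Lipo than in WT, and the estimate lay below WT for 128 of the 173 (median -0.31). The classes were picked on these same WT and Lipo libraries. Their definition favours such a lean in each class, so these counts do not test a difference between the controls. When OE was set directly against WT, 123 of these 173 genes were still higher and 1 was lower, and 85 of the other 123 were still lower and 1 was higher. Of the genes that moved the same way, 39 of 46 were higher and 1 lower than in WT, and 76 of 88 were lower. Over all genes, OE minus WT passed for 1954 higher (12.3%) and 1999 lower (12.6%). The same OE libraries had placed the genes in their classes, so these counts are not independent of that choice.

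Among genes with an average log2 CPM of at least 1, the 7 with the strongest movement were named in each opposite class. In all 4 classes, naming required that KO and WT did not overlap and that OE and Lipo did not overlap. This held for 2995 of the 15832 genes tested (18.9%), and for a gene so named it is no further result. The named genes higher in KO included an immune checkpoint ligand, secreted factors and enzymes, most at low levels. VTCN1 (ENSG00000134258, chromosome 1, 117143587 to 117210960), the B7-H4 ligand that inhibits T cells, had 21.4, 14.9 and 17.1 CPM in KO, against 7.23, 4.24 and 5.52 CPM in WT. It had 2.66 and 2.44 CPM in OE, against 7.20 and 9.21 CPM in Lipo. KO libraries were all above WT and OE libraries all below Lipo (log2 1.65, SE 0.22, edgeR adjusted p = 1.57e-04 in KO, and -1.68, SE 0.29, edgeR adjusted p = 0.00152 in OE). The difference was 3.34 (SE 0.37, edgeR adjusted p = 1.88e-05), and both calls held with each of the 10 libraries left out. SELENOP, the secreted selenium carrier, had 7.68, 5.98 and 4.63 CPM in KO, against 1.99, 1.60 and 1.84 CPM in WT, and 0.493 and 0.276 CPM in OE, against 2.12 and 3.05 CPM in Lipo, with no overlap in either pair. The difference was 4.49 (SE 0.53, edgeR adjusted p = 3.41e-05), and both calls again held with each library left out.

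METTL7A, a methyltransferase of the endoplasmic reticulum membrane, had 5.65, 5.43 and 4.33 CPM in KO, against 1.86, 1.11 and 1.05 CPM in WT (log2 1.94, SE 0.32, edgeR adjusted p = 0.00126). It had no reads in either OE library, against 47 and 59 reads in Lipo, and was at least 32.3-fold lower in OE (floor of 3 reads over the group). BMP5, a ligand of the bone morphogenetic protein family, had 8.16, 6.49 and 4.11 CPM in KO, against 1.69, 1.60 and 2.06 CPM in WT, and 0.296 and 0.736 CPM in OE, against 1.54 and 2.46 CPM in Lipo. The difference was 3.74 (SE 0.59, edgeR adjusted p = 5.50e-04). CYP4B1, a cytochrome P450 of lung epithelium, DEPTOR, an inhibitor of mTOR, and RCN3, a calcium-binding protein of the endoplasmic reticulum, moved alike. Their differences were 3.25 (SE 0.54), 3.03 (SE 0.53) and 2.89 (SE 0.55), with edgeR adjusted p = 7.59e-04, 0.00112 and 0.00209. Their OE calls were less steady: both calls held for BMP5 in 8, for CYP4B1 in 7, for DEPTOR in 6 and for RCN3 in 4 of the 10 fits that leave out 1 library. CFI, the protease that inactivates complement, was chosen after its values were seen. It stood at 31.9 ± 3.16 CPM in KO, 6.48 ± 1.60 CPM in WT, 2.56 ± 0.765 CPM in OE and 6.39 ± 0.317 CPM in Lipo (SD, n = 3, 3, 2 and 2), with a difference of 3.62 (edgeR adjusted p = 3.85e-06).

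The genes named by the same rule for lower KO levels included a cytokine receptor, a chemokine and a transcription factor. NFE2L3 (ENSG00000050344, chromosome 7, 26152240 to 26187125), a basic leucine zipper transcription factor related to NRF2, had no reads in the 3 KO libraries, against 90, 92 and 77 reads in WT. Its level in KO was at least 85.4-fold lower. It had 18.4 and 15.2 CPM in OE, against 2.87 and 1.60 CPM in Lipo (log2 2.90, SE 0.32, edgeR adjusted p = 5.94e-05). IL1RL1, the receptor for interleukin 33, had 1.99, 0.664 and 1.26 CPM in KO, against 9.70, 29.1 and 25.1 CPM in WT, and 35.2 and 32.2 CPM in OE, against 6.16 and 7.06 CPM in Lipo. KO and OE thus stood apart from their controls (log2 -4.04, SE 0.40, edgeR adjusted p = 9.35e-06 in KO, and 2.35, SE 0.42, edgeR adjusted p = 0.00206 in OE), although Lipo was itself below WT (log2 -1.69, edgeR adjusted p = 0.0282). The OE libraries also lay above every WT library, though OE minus WT did not pass (log2 0.66, edgeR adjusted p = 0.191).

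IGFL1, a secreted insulin growth factor-like protein, had 0.221, 0.156 and 0.217 CPM in KO, against 0.519, 2.90 and 2.19 CPM in WT, and 8.68 and 9.66 CPM in OE, against 0.708 and 0.547 CPM in Lipo (log2 -3.22, SE 0.56, edgeR adjusted p = 0.00151 in KO, and 3.85, SE 0.58, edgeR adjusted p = 4.55e-04 in OE). ABCC9, a regulatory subunit of potassium channels, had 0.926, 0.781 and 0.173 CPM in KO, against 6.49, 4.12 and 3.55 CPM in WT, and 11.4 and 11.3 CPM in OE, against 2.29 and 1.23 CPM in Lipo. The difference was -5.58 (SE 0.63, edgeR adjusted p = 2.49e-05). FILIP1L, an interactor of filamin, and MB21D2 followed the same order of groups, with differences of -5.42 (SE 0.46) and -5.34 (SE 0.72) and edgeR adjusted p = 1.17e-06 and 1.30e-04. CXCL1, a chemokine that draws neutrophils, had 0.574, 0.742 and 0.433 CPM in KO, against 8.40, 1.11 and 1.27 CPM in WT, and 35.1 and 36.6 CPM in OE, against 1.75 and 1.78 CPM in Lipo. Its OE rise was large (log2 4.34, SE 0.79, edgeR adjusted p = 0.00493), while the fall in KO (edgeR adjusted p = 0.0431) stood against WT 1 far above WT 2 and WT 3 and was kept in 3 of the 10 fits that leave out 1 library. NFE2L3, IL1RL1, IGFL1, ABCC9 and FILIP1L kept both calls in all 10, and MB21D2 in 6.

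**Figure D3:**
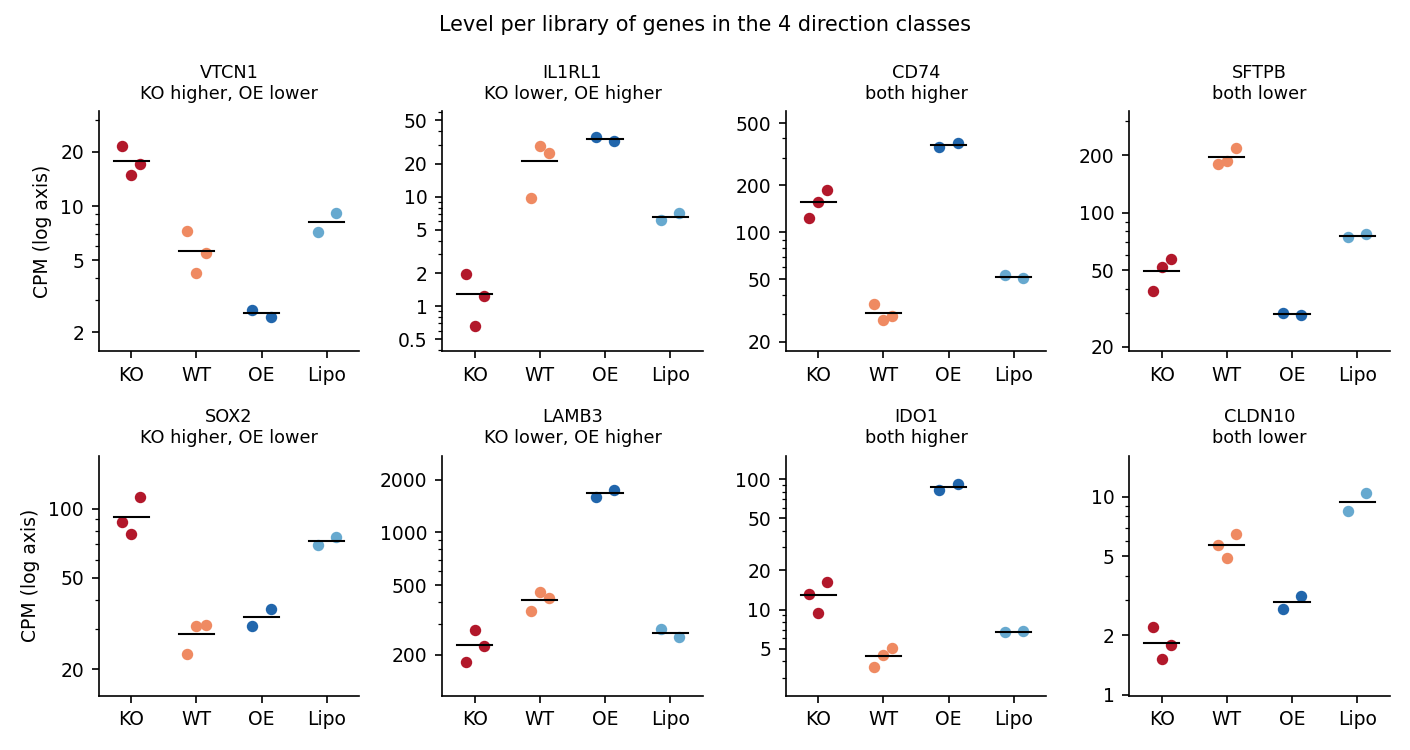
CPM per library (points, log axis) and group mean (line) for 2 genes of each direction class, with KO left of WT and OE left of Lipo. VTCN1 and SOX2 were higher in KO and lower in OE, IL1RL1 and LAMB3 lower in KO and higher in OE, CD74 and IDO1 higher in both, and SFTPB and CLDN10 lower in both.

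Basement membrane and adhesion genes were among the abundant members of the class lower in KO and higher in OE. LAMB3 and LAMA3, chains of laminin, an adhesive protein under epithelia, moved together. LAMB3 had 183, 277 and 226 CPM in KO, against 356, 458 and 421 CPM in WT, and 1603 and 1751 CPM in OE, against 281 and 251 CPM in Lipo (log2 -0.85, SE 0.15, edgeR adjusted p = 0.00146 in KO, and 2.66, SE 0.19, edgeR adjusted p = 1.70e-07 in OE). The difference was -3.50 (SE 0.24, edgeR adjusted p = 1.27e-07). LAMA3 followed with a difference of -2.78 (SE 0.23, edgeR adjusted p = 9.10e-07). Both lay below WT in Lipo (log2 -0.63 and -0.73), with edgeR adjusted p = 0.0495 and 0.0216, and both were higher in OE than in every WT library. They kept both calls with each library left out. Of 24 integrin and laminin genes tested, 2 were higher and 12 lower in KO, 6 higher and 1 lower in OE, and 11 passed the difference, 2 of them with a higher and 9 with a lower KO effect. Beside them, ITGA2 and ITGA5, integrin chains for collagen and fibronectin, had differences of -2.20 and -2.48. FRAS1, a basement membrane protein, went the other way (log2 1.86 in KO minus WT and -1.02 in OE minus Lipo), and Lipo exceeded WT by 1.99 (edgeR adjusted p = 9.65e-04).

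Many matrix genes fell in KO. Of 27 mesenchymal and matrix glycoprotein genes tested, 1 was higher and 14 were lower in KO, 4 were higher and 3 lower in OE, and 14 had a lower and 1 a higher KO effect in the difference (median difference -1.60, against -0.01 over all genes). VIM, an intermediate filament of mesenchymal cells, THBS1, a matrix glycoprotein, LUM, a collagen-binding proteoglycan, and AXL, a receptor kinase, were lower in KO and higher in OE, and Lipo lay below WT for VIM (log2 -1.33, edgeR adjusted p = 0.0483). Both calls held for AXL in 9, for THBS1 in 7, for VIM in 6 and for LUM in 3 of the 10 fits that leave out 1 library. Another 2 of the 27 were lower in both. VCAN, a matrix proteoglycan, was lower in both, with 2 reads in KO against 122 in WT, and 3 in OE against 43 in Lipo. FN1, fibronectin, had 435, 491 and 344 CPM in KO, against 1551, 2562 and 2425 CPM in WT, and 1738 and 1850 CPM in OE, against 1939 and 1836 CPM in Lipo. It fell in KO alone (log2 -2.36, SE 0.18, edgeR adjusted p = 4.86e-07). OE minus Lipo was -0.07 (edgeR adjusted p = 0.864), and its difference was -2.29 (edgeR adjusted p = 3.86e-05). CD44, the hyaluronan receptor, had 2, 0 and 4 reads in KO, against 12.6 ± 3.71 CPM in WT, and 4.88 and 5.75 CPM in OE, against 4.16 and 3.97 CPM in Lipo (difference -7.52, SE 0.60, edgeR adjusted p = 6.77e-07). TNC, tenascin, had 62.8, 78.4 and 68.7 CPM in KO, against 148, 283 and 233 CPM in WT, and 334 and 348 CPM in OE, against 235 and 212 CPM in Lipo. The difference was -2.27 (SE 0.29, edgeR adjusted p = 7.44e-05). Leaving out 1 OE or Lipo library lowered the number of the list's genes higher in OE to 1 or 2. With WT as control of OE, 2 were higher and 7 lower in OE, and the OE median was -0.20, against 0.28 with Lipo.

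Among 17 collagen genes tested, 7 were lower in KO, 1 was higher and 1 lower in OE, and 7 had a lower KO effect in the difference. Over all genes, 7.45% were lower in KO, 6.79% higher in OE and 5.53% lower in OE. The OE calls of the list were thus near the shares over all genes. The difference passed for 41.2% of the 17, against 16.6% of all genes. COL1A1, a chain of type I collagen, had 56.9, 66.1 and 68.7 CPM in KO, against 156, 266 and 272 CPM in WT, and 302 and 313 CPM in OE, against 159 and 149.6 CPM in Lipo (log2 -1.86, SE 0.18, edgeR adjusted p = 5.93e-06 in KO, and 0.99, SE 0.21, edgeR adjusted p = 0.00643 in OE). The difference was -2.85 (SE 0.28, edgeR adjusted p = 4.78e-06). COL8A1 and COL6A2 fell in KO and did not pass in OE, and their differences were -3.69 and -1.75 (edgeR adjusted p = 4.33e-04 and 0.00132). The collagen result depended on the control: the median difference of the list was -1.14 with Lipo and 0.13 with WT as control of OE, where 7 of the 17 were lower in OE and none higher. For integrins and laminins the medians were -0.36 and -0.12, with 6 higher and 8 lower in OE against WT. With each comparison fitted alone, 8 of 21 integrin and laminin genes were higher and 10 lower in OE, and 1 was higher and 9 lower in KO.

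Of 23 matrix proteases, their inhibitors and receptors tested, 1 was higher and 8 were lower in KO, 10 were higher and 1 lower in OE, and 10 had a lower KO effect and none a higher one (median difference -1.0). PLAUR, the urokinase receptor, had 21.2, 27 and 29.6 CPM in KO, against 47, 51.7 and 49.7 CPM in WT, and 236 and 249 CPM in OE, against 53.6 and 46.6 CPM in Lipo (log2 -0.93, SE 0.14, edgeR adjusted p = 3.24e-04 in KO, and 2.27, SE 0.17, edgeR adjusted p = 2.57e-07 in OE). PLAU, urokinase itself, stood at 268 ± 29.3 CPM in KO, 639 ± 95.1 CPM in WT, 1200 ± 18.8 CPM in OE and 622 ± 12.5 CPM in Lipo (SD). Lipo minus WT was 0.02 and -0.04 on the log2 scale. CTSL, a lysosomal cysteine protease, had 21.7, 21.3 and 22.3 CPM in KO, against 48.8, 57.2 and 45.5 CPM in WT, and 89.9 and 91.1 CPM in OE, against 39.8 and 46.7 CPM in Lipo (difference -2.28, SE 0.20, edgeR adjusted p = 2.09e-06). MMP1, a collagenase, had 0.0441, 0.0781 and 0.0866 CPM in KO, against 1.13, 1.76 and 1.05 CPM in WT, and 1.87 and 1.15 CPM in OE, against 0.250 and 0.228 CPM in Lipo (difference -6.76, SE 0.90, edgeR adjusted p = 1.13e-04). Its KO values lay below the level of 3 reads (0.117 to 0.132 CPM in these libraries), so the size of its difference is uncertain. The OE and WT libraries of MMP1 overlapped, and Lipo lay below every WT library. MMP13, another collagenase, rose in OE alone, with 443 and 463 CPM in OE, against 20.4 and 19.5 CPM in Lipo, while it had 40.5, 26.1 and 30.3 CPM in KO, against 40.4, 39.1 and 38.5 CPM in WT (difference -4.79, edgeR adjusted p = 4.46e-09). The counts fell to 5 lower in KO without WT 3, and to 5 or 6 higher in OE without OE 1, Lipo 2 or Lipo 3.

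Among 33 genes of the TGF-beta pathway, which drives matrix production, 12 were lower and none higher in KO, 6 higher and 1 lower in OE, and 10 had a lower KO effect and 1 a higher one (median difference -0.52). INHBA, an activin subunit, had 0.265, 0.391 and 0.520 CPM in KO, against 2.42, 0.993 and 1.23 CPM in WT, and 14.2 and 13.1 CPM in OE, against 0.0833 and 0.182 CPM in Lipo (log2 -1.96, SE 0.41, edgeR adjusted p = 0.00522 in KO, and 6.64, SE 0.56, edgeR adjusted p = 1.04e-06 in OE), and Lipo lay below WT (log2 -3.50, edgeR adjusted p = 0.00426). TGFB2, a TGF-beta ligand, SMAD3, a signal transducer of the pathway, and SMURF1, a ubiquitin ligase of the pathway, were in the same class, with differences of -2.89, -1.18 and -1.26, and Lipo lay below WT for TGFB2 (log2 -1.45). INHBB, a second activin subunit, fell in KO (log2 -1.74) and had 21.5 and 20.8 CPM in OE, against 19.3 and 17.7 CPM in Lipo. Leaving out 1 OE or Lipo library lowered the number higher in OE to 2.

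Among 28 targets of YAP and TAZ, cofactors that respond to cell shape and density, 9 were lower and none higher in KO, 9 higher and 2 lower in OE, and 11 had a lower KO effect and 1 a higher one (median difference -0.62). IGFBP3, which binds insulin-like growth factors, had 14.2, 11 and 13.9 CPM in KO, against 248, 355 and 307 CPM in WT, and 274 and 278 CPM in OE, against 163 and 169.7 CPM in Lipo (log2 -4.55, SE 0.16, edgeR adjusted p = 2.34e-10 in KO, and 0.73, SE 0.17, edgeR adjusted p = 0.0109 in OE). The OE libraries lay within the WT range, with Lipo minus WT at -0.87 (edgeR adjusted p = 0.00745), and its OE call was kept in 6 of 10 fits. F3, tissue factor, had 14.1, 10.9 and 12.6 CPM in KO, against 31.1, 18.5 and 17.1 CPM in WT, and 53.4 and 56.1 CPM in OE, against 13.3 and 12.7 CPM in Lipo (difference -2.90, SE 0.32, edgeR adjusted p = 2.04e-05). CCN2, another target, went against the list and was lower in both. GADD45A rose in OE alone (log2 1.27; KO -0.14). The number higher in OE was 3 or 4 without any 1 of the OE or Lipo libraries, and with WT as control of OE 9 were higher and 5 lower in OE. Among 22 genes of receptor kinases, growth factors and their binding proteins, which include the EGFR family, 10 were lower and none higher in KO, 4 higher and 1 lower in OE, and 9 had a lower KO effect and 1 a higher one (median difference -0.72). FGFBP1, a carrier of fibroblast growth factors, had 15.2, 21.5 and 16.5 CPM in KO, against 62.6, 38.2 and 28.9 CPM in WT, and 66 and 54.5 CPM in OE, against 21.7 and 23.1 CPM in Lipo. AXL had 1.90, 2.97 and 4.33 CPM in KO, against 5.45, 8.40 and 8.72 CPM in WT, and 9.37 and 10.1 CPM in OE, against 2.91 and 1.91 CPM in Lipo, with Lipo below WT (log2 -1.63). VEGFC, a growth factor for lymphatic vessels, rose in OE alone. The differences of the 3 were -2.71, -3.30 and -1.83, and the number of the list's genes higher in OE was 2 without Lipo 2 or Lipo 3. Against WT in place of Lipo, 2 were higher and 3 lower in OE.

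Keratin and squamous genes were split between the classes. Of 29 tested, 3 were higher and 9 lower in KO, 11 higher and 4 lower in OE, and 13 had a lower and 2 a higher KO effect (median difference -0.70). SPRR1B, a cornified envelope precursor, had 3.97, 3.48 and 6.50 CPM in KO, against 26.8, 56.7 and 51.4 CPM in WT, and 94.4 and 93.7 CPM in OE, against 30.9 and 39.7 CPM in Lipo (log2 -3.28, SE 0.28, edgeR adjusted p = 2.18e-06 in KO, and 1.41, SE 0.30, edgeR adjusted p = 0.00719 in OE). SPRR1A, KRT6A and KRT7 were in the same class, with differences of -3.82, -3.17 and -1.09, and Lipo lay below WT for KRT6A (log2 -1.19). Both calls held for KRT6A in 10, for SPRR1A in 6 and for KRT7 in 2 of the 10 fits that leave out 1 library. Near-identical copies of the SPRR1 and KRT6 genes could share reads. SOX2, a transcription factor of squamous and stem cells, had 87.1, 77.8 and 112 CPM in KO, against 23.3, 30.9 and 31.3 CPM in WT, and 31 and 36.8 CPM in OE, against 69.8 and 75.1 CPM in Lipo. It rose in KO and fell in OE (log2 1.69, SE 0.16, edgeR adjusted p = 6.17e-06 in KO, and -1.10, SE 0.20, edgeR adjusted p = 0.00193 in OE), but Lipo itself exceeded WT (log2 1.34, edgeR adjusted p = 0.00108), and OE minus WT was 0.25 (edgeR adjusted p = 0.332). KRT4, a mucosal keratin, had 345, 385 and 408 CPM in KO, against 279.8, 194 and 206 CPM in WT, and 51.8 and 43.3 CPM in OE, against 123 and 144 CPM in Lipo, so that OE lay below WT as well (difference 2.23, SE 0.23, edgeR adjusted p = 1.13e-05). The number of the list's genes higher in OE fell to 3 to 5 without any 1 OE or Lipo library.

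Interferon-stimulated genes, chemokines and cytokines, and nucleic acid sensing genes had the largest median differences of the 25 lists described, and each list held more calls in OE than in KO. Of 50 interferon-stimulated genes tested, 49 were higher and none lower in OE, 6 were higher and 6 lower in KO, and 47 had a lower and none a higher KO effect. The median log2 fold change was 3.45 in OE and 0.03 in KO, and the median difference was -3.69. The summed level of the 50 was 2559, 2961 and 3291 CPM in KO, against 2514, 2873 and 2897 CPM in WT, and 25525 and 25699 CPM in OE, against 3243 and 3176 CPM in Lipo. OAS2, which makes the 2′-5′ oligoadenylates that activate RNase L, had 1.37, 1.45 and 0.953 CPM in KO, against 1.95, 1.37 and 1.88 CPM in WT, and 1551 and 1574 CPM in OE, against 2.75 and 1.55 CPM in Lipo. The difference was -9.95 (SE 0.34, edgeR adjusted p = 1.75e-10). IFI44L rose in OE as well (log2 7.28; difference -7.33, edgeR adjusted p = 1.75e-10), with a KO change of -0.05 (edgeR adjusted p = 0.889).

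The 12 interferon-stimulated genes that also passed in KO were divided evenly between directions. OAS1, IFI6, PARP12, SAMD9L, GBP3 and PARP10 were lower in KO and higher in OE, and IFIT1, IFIT2, IFIT3, IFITM2, IFITM3 and XAF1 were higher in both. IFI6, an inhibitor of viral replication, stood at 2.58 ± 1.24 CPM in KO, 4.98 ± 1.15 CPM in WT, 929 ± 18.4 CPM in OE and 7.58 ± 0.283 CPM in Lipo (SD), with log2 -0.96 in KO minus WT and 6.93 in OE minus Lipo. OAS1 had a log2 change of -0.88 in KO and 4.64 in OE. IFIT3, which binds viral RNA with its partners, had 9.93, 8.79 and 9.05 CPM in KO, against 4.37, 2.71 and 2.41 CPM in WT, and 929 and 947 CPM in OE, against 5.83 and 4.74 CPM in Lipo. It rose in both (log2 1.55, SE 0.18, edgeR adjusted p = 5.48e-05 in KO, and 7.47, SE 0.25, edgeR adjusted p = 3.84e-11 in OE), and the difference of -5.92 (SE 0.29, edgeR adjusted p = 3.52e-09) shows the larger OE effect. IFIT2 had 12.7, 11.7 and 11 CPM in KO, against 5.06, 4.09 and 5.17 CPM in WT, and 651 and 684 CPM in OE, against 7.62 and 7.11 CPM in Lipo. The difference was -5.19 (SE 0.21, edgeR adjusted p = 9.90e-10), and Lipo exceeded WT by 0.63 (edgeR adjusted p = 0.0320). XAF1, an antagonist of an apoptosis inhibitor, had 7, 8 and 15 reads in KO, against 2, 0 and 3 in WT, and was at least 1738-fold higher in OE than in Lipo, where it had none. IFIT2 and IFIT3 kept both calls with each library left out, XAF1 in 8 of 10 and IFI6 in 7 of 10. IFITM2 and IFITM3 are near-identical and could share reads.

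The promoters of IFIT3, IFI6, CD274 and CXCL1 are shown as examples of the motifs searched. They were chosen after their values were seen and do not stand for their classes. Only a window with a match was shown, and for IFIT3, with 2 start sites, it was the first such window. The windows cover 250 bases before and 50 after a start site of RefSeq, build GRCh38.p14, 5′ to 3′ on the gene's strand. IFIT3 (chr10:89327747-89328046, plus strand) was higher in both, and IFI6 (chr1:27672143-27672442, minus strand) and CD274 (chr9:5450292-5450591, plus strand) were lower in KO and higher in OE. Capitals mark the core of the interferon-stimulated response element, searched as 2 GAAA blocks with any 2 bases between them, on both strands with overlaps allowed, which 3.57% of 35116 windows held. CXCL1 (chr4:73869143-73869442, plus strand) is shown with the kappa B sequence searched, spelled by its capitals, which 0.145% of windows held on either strand.
IFIT3: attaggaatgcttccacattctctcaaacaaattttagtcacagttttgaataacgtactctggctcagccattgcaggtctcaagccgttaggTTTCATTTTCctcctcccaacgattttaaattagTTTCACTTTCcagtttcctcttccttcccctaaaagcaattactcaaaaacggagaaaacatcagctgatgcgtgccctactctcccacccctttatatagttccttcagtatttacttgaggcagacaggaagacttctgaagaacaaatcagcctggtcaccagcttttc
IFI6: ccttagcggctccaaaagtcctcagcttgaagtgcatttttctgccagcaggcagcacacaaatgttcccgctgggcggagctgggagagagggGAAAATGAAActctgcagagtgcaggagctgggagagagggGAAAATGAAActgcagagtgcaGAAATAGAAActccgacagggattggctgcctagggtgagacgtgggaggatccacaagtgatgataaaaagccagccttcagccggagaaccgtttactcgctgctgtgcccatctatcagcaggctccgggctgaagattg
CD274: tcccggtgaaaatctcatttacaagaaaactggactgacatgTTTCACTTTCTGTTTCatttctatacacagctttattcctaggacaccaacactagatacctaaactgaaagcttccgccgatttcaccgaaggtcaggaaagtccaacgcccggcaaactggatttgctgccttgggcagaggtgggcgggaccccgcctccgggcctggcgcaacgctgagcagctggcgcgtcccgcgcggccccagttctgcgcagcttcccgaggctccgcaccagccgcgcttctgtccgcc
CXCL1: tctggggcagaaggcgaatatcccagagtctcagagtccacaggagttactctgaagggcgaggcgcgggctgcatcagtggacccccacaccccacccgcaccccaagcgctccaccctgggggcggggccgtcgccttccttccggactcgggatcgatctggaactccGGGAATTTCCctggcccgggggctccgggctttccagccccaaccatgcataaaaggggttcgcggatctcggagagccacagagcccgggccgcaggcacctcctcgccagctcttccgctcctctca
IFIT3 had 2 matches, IFI6 3 and CD274 2 that overlap, and CXCL1 had 1. A match is a description of letters, not of a bound site.

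The signalling and sensing genes around interferon moved in OE, with 1 KO call each. Of 23 interferon ligand, receptor and signalling genes, 13 were higher in OE and none lower, and 9 had a lower KO effect (median difference -0.77). The 1 KO call was IFNLR1, whose product receives type III interferons. No KO library had an IFNLR1 read, against 211, 279 and 265 in WT, which makes it at least 249-fold lower in KO. It had 19.7 and 20.3 CPM in OE, against 8.99 and 8.89 CPM in Lipo (log2 1.16, edgeR adjusted p = 0.00432). USP18, which limits interferon signalling, had a difference of -3.53 (SE 0.24). Leaving out OE 1, Lipo 2 or Lipo 3 lowered the count higher in OE to 8, and 14 had a lower KO effect with WT as control of OE. Of 17 nucleic acid sensing genes, 13 were higher in OE, 13 had a lower KO effect and 1 was lower in KO (median difference -2.00). IFIH1, the MDA5 sensor of double-stranded RNA, had 32.6, 29.8 and 26.5 CPM in KO, against 31.8, 34.6 and 31.5 CPM in WT, and 314 and 309 CPM in OE, against 32 and 36.8 CPM in Lipo. SAMHD1 and ZNFX1 had differences of -2.61 and -2.37. DHX58, the LGP2 sensor, was the 1 lower in KO (log2 -0.51 in KO minus WT and 2.46 in OE minus Lipo), a KO call kept in 3 of the 10 fits that leave out 1 library.

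Most antigen presentation genes tested of both classes were higher in OE. Of 15 MHC class I presentation genes, 11 were higher in OE, none lower, 1 was lower in KO and 9 had a lower KO effect (median difference -1.48). HLA-B and NLRC5, the activator of class I genes, rose in OE alone, with differences of -4.01 and -3.05 (edgeR adjusted p = 6.45e-06 and 2.30e-05). Reads of the HLA genes can be shared between near-identical members and depend on the alleles of the line. The count higher in OE was 7 without Lipo 3, and 14 had a lower KO effect with WT as control of OE. Of 6 class II genes tested, 2 were higher in KO, 4 higher in OE and none lower in either, and 1 had a higher and 2 a lower KO effect (median difference -0.28). CD74, the invariant chain of class II molecules, had 124, 156 and 187 CPM in KO, against 34.9, 27.6 and 29.1 CPM in WT, and 353 and 372 CPM in OE, against 53.2 and 50.7 CPM in Lipo. It rose in both (log2 2.35, SE 0.15, edgeR adjusted p = 1.13e-07 in KO, and 2.80, SE 0.19, edgeR adjusted p = 1.04e-07 in OE). The difference was -0.45 (SE 0.23, edgeR adjusted p = 0.202), which does not show that the effects were equal. CIITA, the master activator of class II genes, had 4.41, 4.30 and 4.55 CPM in KO, against 0.433, 0.764 and 0.964 CPM in WT, and 5.42 and 6.94 CPM in OE, against 2.54 and 2.46 CPM in Lipo. It too rose in both (log2 2.61, SE 0.30, edgeR adjusted p = 4.21e-05 in KO, and 1.30, SE 0.33, edgeR adjusted p = 0.0180 in OE), with a difference of 1.30 (SE 0.44, edgeR adjusted p = 0.0581). Lipo exceeded WT for CD74 (0.77) and CIITA (1.79), with edgeR adjusted p = 0.0169 and 0.00866. CD74 kept both calls in all 10 fits and CIITA in 6. CTSS, a protease that trims the invariant chain, RFX5 and RFXAP, partners of CIITA, had differences of -1.44, -0.79 and 1.70.

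Ligands that restrain immune cells moved in 3 of the 4 classes. Of 17 checkpoint and natural killer ligand genes, 3 were higher and 4 lower in KO, 9 higher and 1 lower in OE, and 10 had a lower and 2 a higher KO effect (median difference -0.96). VTCN1 was higher in KO and lower in OE. CD274, the PD-L1 ligand, had 41.1, 45 and 31.1 CPM in KO, against 63.2, 83.4 and 71.3 CPM in WT, and 107 and 107 CPM in OE, against 44.5 and 46.3 CPM in Lipo (log2 -0.89, SE 0.15, edgeR adjusted p = 0.00106 in KO, and 1.24, SE 0.18, edgeR adjusted p = 3.79e-04 in OE). It kept both calls with each library left out, but Lipo lay below WT (-0.68, edgeR adjusted p = 0.0376). CEACAM1, an inhibitory adhesion molecule, had 8.21, 8.24 and 8.36 CPM in KO, against 12.3, 15.4 and 15.3 CPM in WT, and 99.1 and 102 CPM in OE, against 11.2 and 16.7 CPM in Lipo. The difference was -3.65 (SE 0.26, edgeR adjusted p = 1.77e-07). IDO1, which breaks down tryptophan, had 13.2, 9.45 and 16.2 CPM in KO, against 3.59, 4.47 and 5.04 CPM in WT, and 82.5 and 92 CPM in OE, against 6.74 and 6.79 CPM in Lipo. It was higher in both, and its difference of -2.12 (SE 0.31, edgeR adjusted p = 2.34e-04) put the OE effect above the KO effect. LGALS9, a galectin ligand of T cells, was also higher in both (log2 1.20 in KO minus WT and 3.86 in OE minus Lipo, difference -2.65). Without OE 1 or without Lipo 2, 6 had a lower KO effect, and without Lipo 2, 5 were higher in OE.

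Chemokines and NF-kB genes followed the interferon genes in OE. Of 25 chemokine and cytokine genes, 17 were higher in OE and none lower, 1 was higher and 3 lower in KO, and 15 had a lower KO effect (median difference -3.63, or -3.59 with genes without reads at their bound). CX3CL1, a membrane-bound chemokine, had 19.7, 30.5 and 31.7 CPM in KO, against 108, 128 and 133 CPM in WT, and 264 and 269 CPM in OE, against 98.1 and 95.5 CPM in Lipo (log2 -2.17, SE 0.16, edgeR adjusted p = 4.56e-07 in KO, and 1.46, SE 0.19, edgeR adjusted p = 1.32e-04 in OE). CXCL16, another membrane-bound chemokine, had 19.9, 18.9 and 20.7 CPM in KO, against 27.8, 28.6 and 27.6 CPM in WT, and 104 and 108 CPM in OE, against 31.6 and 33.5 CPM in Lipo (difference -2.20, edgeR adjusted p = 1.03e-06). IL32 rose in OE alone, with 191 and 221 CPM in OE, against 7.16 and 8.61 CPM in Lipo, while it had 7.28, 14.4 and 14.6 CPM in KO, against 17.2, 11.3 and 11.7 CPM in WT. Of 28 NF-kB and TNF signalling genes, 24 were higher in OE and none lower, 2 were higher and 4 lower in KO, and 19 had a lower KO effect (median difference -1.40). TNFAIP3, a deubiquitinase that limits NF-kB, had 12.8, 19.1 and 13 CPM in KO, against 66.1, 29.8 and 29.8 CPM in WT, and 647 and 655 CPM in OE, against 36.3 and 34 CPM in Lipo (log2 -1.48, SE 0.26, edgeR adjusted p = 0.00175 in KO, and 4.21, SE 0.34, edgeR adjusted p = 9.07e-07 in OE), with WT 1 above WT 2 and WT 3. Both calls of TNFAIP3 held with each library left out. ICAM1, an adhesion receptor for leukocytes, was in the same class, with its KO call kept in 2 of 10 fits. TNFAIP2 and RELB rose in OE alone, with differences of -3.45 and -3.08. TNFSF10, the TRAIL ligand, and its receptor TNFRSF10A were higher in both. TNFSF10 had log2 0.78 in KO minus WT and 3.36 in OE minus Lipo, and TNFRSF10A had log2 0.56 in KO minus WT and 0.57 in OE minus Lipo.

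**Figure D4:**
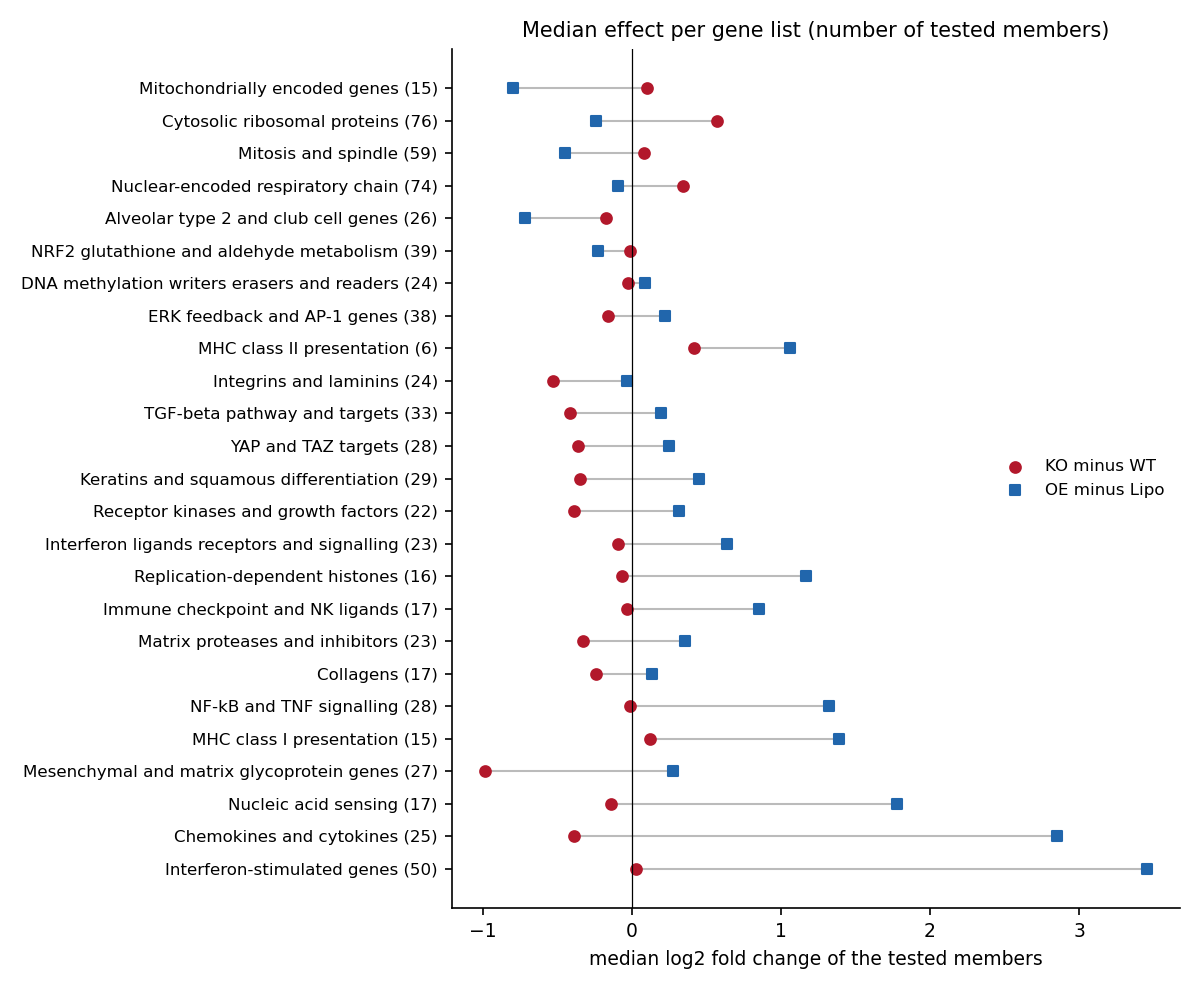
Median log2 fold change of the tested members of each gene list (number in brackets) in KO minus WT (red circles) and OE minus Lipo (blue squares), ordered by the median difference, with genes without reads in a group at their bound. Interferon-stimulated genes lie at 0.03 in KO and 3.45 in OE, and cytosolic ribosomal proteins at 0.57 in KO and -0.24 in OE.

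Ribosomal protein and respiratory chain genes lay on the opposite side, with a higher KO effect. Of 76 cytosolic ribosomal protein genes tested, 53 were higher and none lower in KO, 7 were lower and none higher in OE, and 46 had a higher KO effect and none a lower one. Their median was 0.57 in KO and -0.24 in OE, and the median difference was 0.81. The summed level was 63208, 55707 and 72636 CPM in KO, against 44531, 44870 and 43394 CPM in WT, and 40728 and 40619 CPM in OE, against 47868 and 50339 CPM in Lipo. The groups did not overlap in either pair. RPS3A had 951, 818 and 956 CPM in KO, against 517, 621 and 580.5 CPM in WT, and 392 and 380.3 CPM in OE, against 581 and 685 CPM in Lipo (log2 0.67, SE 0.12, edgeR adjusted p = 0.00159 in KO, and -0.71, SE 0.14, edgeR adjusted p = 0.00452 in OE). RPL3 and RPL5 were in the same class, with differences of 1.18 (SE 0.18) and 1.14 (SE 0.18) and edgeR adjusted p = 3.71e-04 and 4.37e-04. Processed pseudogenes of ribosomal protein genes could take some of their reads. The 46 became 20 to 30 without any 1 of the OE or Lipo libraries, the 53 became 35 without WT 3, and the 7 became 0 or 1 without any 1 of the OE or Lipo libraries and 16 without KO 3. When WT was the control of OE, 12 were lower and 2 higher in OE. With each comparison fitted alone, 34 were higher and 0 lower in KO, and 48 were lower and 1 higher in OE.

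Of 74 nuclear-encoded respiratory chain genes, 20 were higher and 1 lower in KO, 1 was lower and none higher in OE, and 13 had a higher and 1 a lower KO effect (median difference 0.43). The difference thus passed for 18.9% of the 74 in either direction, against 16.6% of all genes. ATP5MC2, a subunit of the ATP synthase rotor, had 109, 180.1 and 239.7 CPM in KO, against 67.9, 99.2 and 99.3 CPM in WT, and 77.7 and 64.5 CPM in OE, against 132 and 134 CPM in Lipo (log2 0.99, SE 0.22, edgeR adjusted p = 0.00905 in KO, and -0.91, SE 0.27, edgeR adjusted p = 0.0437 in OE). ATP5MC1, which encodes the same mature protein, rose in KO alone (log2 1.32 in KO minus WT and -0.27 in OE minus Lipo), and ATP5ME, another subunit, had a difference of 1.19 (edgeR adjusted p = 0.00304). The 13 became 3 to 7 without any 1 OE or Lipo library, and the 20 became 6 without WT 3, 8 without WT 2 and 10 without KO 3 or any 1 OE or Lipo library. Set against WT, 4 of the 74 were higher and 2 lower in OE, the OE median was 0.15, against -0.09 with Lipo, and the median difference was 0.19. With each comparison fitted alone, 17 of 73 tested were lower and 1 higher in OE, and 9 were higher and 1 lower in KO. The 15 mitochondrially encoded genes differed through OE and Lipo. None passed in KO, 11 were lower in OE, 11 had a higher KO effect, and 9 were higher and 1 lower in Lipo than in WT (median difference 0.88). MT-CO3, a subunit of cytochrome oxidase, had 3683, 4114 and 5386 CPM in KO, against 3721, 4330 and 4596 CPM in WT, and 2491 and 2325 CPM in OE, against 6406 and 6238 CPM in Lipo (difference 1.45, SE 0.22, edgeR adjusted p = 3.41e-04). MT-ATP6 and MT-ND5 had differences of 1.16 and 1.07. With WT as control of OE, 6 of the 15 had a higher and 1 a lower KO effect, and 6 or 7 passed without any 1 OE or Lipo library. Mitochondrially encoded reads took 5.44% to 7.25% of counts in KO, 5.47% to 6.15% in WT, 4.74% to 4.89% in OE and 8.04% to 8.72% in Lipo. Whether this share plays a part in the other results was not tested, but leaving these genes out changed the number of opposite genes to 303.

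Cell division genes differed mainly through OE. Of 59 mitosis and spindle genes, 16 were lower and none higher in OE, 4 were higher and 1 lower in KO, and 20 had a higher KO effect and none a lower one (median difference 0.55). KIF20A, a kinesin of cytokinesis, had 274, 251 and 308 CPM in KO, against 227, 173 and 172 CPM in WT, and 104 and 102 CPM in OE, against 169 and 186 CPM in Lipo (log2 0.54, SE 0.13, edgeR adjusted p = 0.0124 in KO, and -0.79, SE 0.16, edgeR adjusted p = 0.00493 in OE). CENPF, a kinetochore protein, had 289, 254 and 248 CPM in KO, against 253, 219 and 206 CPM in WT, and 101 and 108 CPM in OE, against 181 and 179 CPM in Lipo. The difference was 1.01 (SE 0.18, edgeR adjusted p = 0.00150). ASPM, a spindle pole protein, fell in OE (log2 -0.98) with a difference of 1.11. NDC80, a kinetochore protein, was lower in both (log2 -0.77 in KO minus WT and -0.85 in OE minus Lipo). The 20 became 7 to 10 without any 1 OE or Lipo library and 42 with WT as control of OE, and the 16 became 4 to 8 without any 1 OE or Lipo library and 25 to 29 without KO 1, KO 3 or WT 1. With each comparison fitted alone, 48 of the 59 mitosis and spindle genes were lower and 2 higher in OE, and 3 were higher and 1 lower in KO. Of 16 histone genes tested, 9 were higher in OE and none lower, 1 was lower in KO and 7 had a lower KO effect (median difference -0.95). H2AC6 and H2BC4 rose in OE alone (differences -1.30 and -1.49), histone genes are near-identical and could share reads, and without any 1 OE or Lipo library 2 or 3 had a lower KO effect and 3 or 4 were higher in OE.

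**Figure D5:**
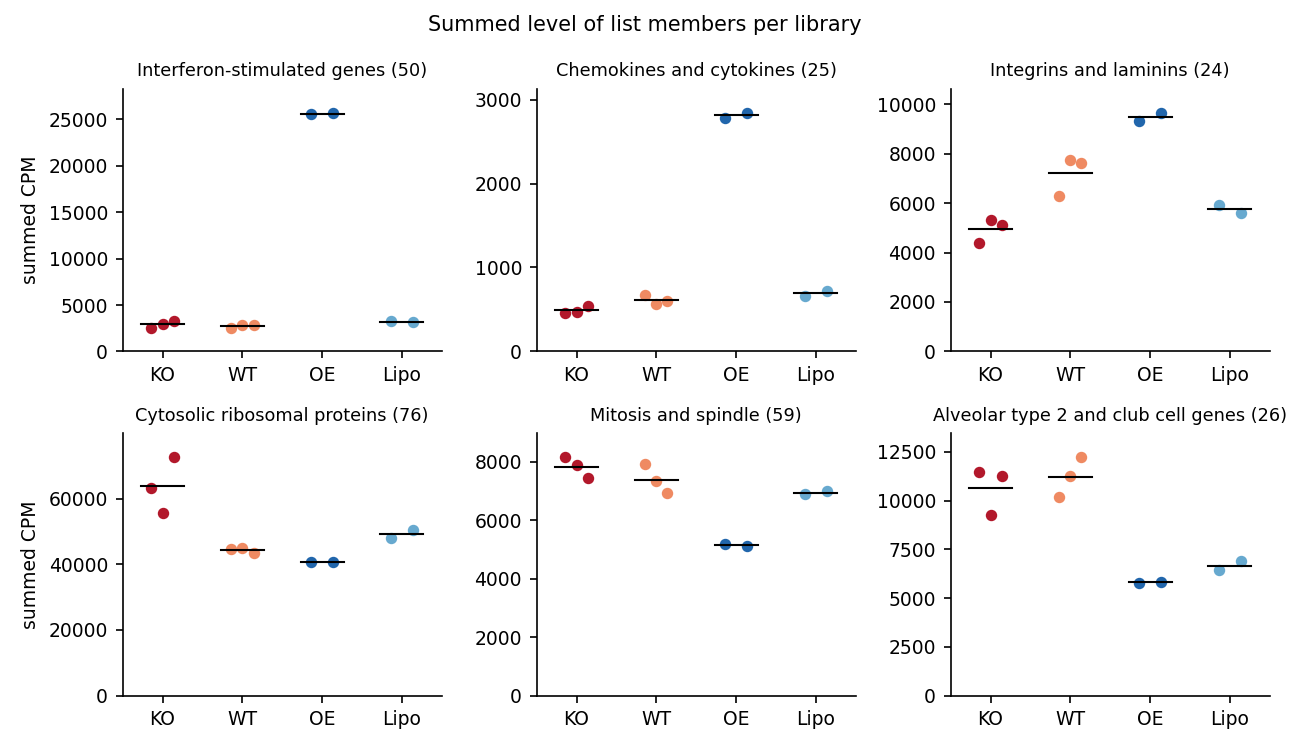
Summed CPM of the tested members of 6 lists per library (points) and group mean (line), with axes from 0. Ribosomal protein RNA was highest in KO (55707 to 72636 CPM), interferon-stimulated RNA in OE (25525 and 25699 CPM), and the alveolar list was lower in OE and Lipo than in KO and WT.

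Genes of alveolar type 2 and club cells included 3 that fell in both, SFTPB, HOPX and CYP2B7P. Of 26 tested, 1 was higher and 4 lower in KO, 2 higher and 12 lower in OE, and 9 had a higher and 4 a lower KO effect (median difference 0.27). SFTPB, surfactant protein B (ENSG00000168878, chromosome 2, 85657314 to 85668741), had 39.1, 51.8 and 57.6 CPM in KO, against 180.1, 186 and 218 CPM in WT, and 30.1 and 29.3 CPM in OE, against 74.7 and 77.1 CPM in Lipo. It was lower in both (log2 -1.97, SE 0.15, edgeR adjusted p = 3.79e-07 in KO, and -1.35, SE 0.18, edgeR adjusted p = 1.27e-04 in OE). The difference was -0.62 (SE 0.22, edgeR adjusted p = 0.0723). Lipo itself lay below WT (log2 -1.36, edgeR adjusted p = 6.74e-04), and OE was the lowest of the 4 groups. HOPX, a cofactor of alveolar cells, stood at 50.9 ± 6.72 CPM in KO, 96.9 ± 7.69 CPM in WT, 27.5 ± 1.69 CPM in OE and 53.1 ± 1.03 CPM in Lipo (SD), and Lipo was below WT here too (-0.87). CYP2B7P, a transcribed cytochrome P450 pseudogene, was lower in both as well (log2 -2.77 in KO minus WT and -1.07 in OE minus Lipo). SLC34A2, the phosphate transporter of type 2 cells, fell in KO alone (log2 -1.50, SE 0.14; OE 0.23), and LAMP3, a lysosomal membrane protein that interferon also induces, rose in OE alone (log2 5.95; KO -0.32). SFTPB and HOPX kept both calls with each library left out, and the 12 lower in OE became 6 or 7 without OE 1, OE 2 or Lipo 3.

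The other genes named as lower in both span several functions. CLDN10, a claudin of tight junctions, had 2.21, 1.52 and 1.78 CPM in KO, against 5.71, 4.93 and 6.49 CPM in WT, and 2.71 and 3.17 CPM in OE, against 8.45 and 10.5 CPM in Lipo. It fell in both (log2 -1.64, SE 0.24, edgeR adjusted p = 3.35e-04 in KO, and -1.68, SE 0.28, edgeR adjusted p = 0.00113 in OE), with a difference of 0.05 (SE 0.37, edgeR adjusted p = 0.952). LONRF2, a ubiquitin ligase, had 0.485, 0.0781 and 0 CPM in KO, against 8.31, 10.7 and 11.4 CPM in WT, and 1.28 and 2.07 CPM in OE, against 7.66 and 6.20 CPM in Lipo. The difference was -3.71 (SE 0.74, edgeR adjusted p = 0.00316), with the larger loss in KO. CCN2, a secreted matricellular protein, had 4.50, 8.75 and 4.07 CPM in KO, against 31.6, 9.01 and 12.8 CPM in WT, and 7.64 and 6.67 CPM in OE, against 20.8 and 21.7 CPM in Lipo, with KO 2 just below WT 2. B4GALT6, a synthase of lactosylceramide, and CD302, a C-type lectin, were lower in both, with differences of 0.21 and 1.45 that did not pass. TNIK, a kinase of the Wnt pathway, had 0.309, 0.234 and 0.476 CPM in KO, against 2.34, 2.21 and 2.32 CPM in WT, and 1.92 and 2.39 CPM in OE, against 5.16 and 5.24 CPM in Lipo, so that OE and WT overlapped and the loss in OE was seen against Lipo only (Lipo minus WT 1.18, edgeR adjusted p = 0.0468). Both calls were kept in 10 of 10 fits for CLDN10, 8 for LONRF2, 6 for B4GALT6 and TNIK, 4 for CCN2 and 2 for CD302.

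MMP9, a gelatinase, completes the named genes higher in both. It had 74.4, 164 and 106 CPM in KO, against 57.5, 20.2 and 20.2 CPM in WT, and 45 and 56.1 CPM in OE, against 6.54 and 5.97 CPM in Lipo. KO and WT did not overlap, WT 1 was the highest of WT, and Lipo minus WT was -2.38 (edgeR adjusted p = 0.0305). The OE libraries fell within the WT range. The difference was -1.20 (SE 0.65, edgeR adjusted p = 0.247), and it kept both calls in 8 of 10 fits. Of the 134 genes that moved the same way, 27 also passed the difference. In the 46 higher in both, 14 had the larger rise in OE and 2 in KO, and besides the immune genes above the 14 held EBI3, an interleukin subunit (log2 1.20 in KO minus WT and 4.85 in OE minus Lipo), PML, a nuclear body protein (log2 0.58 in KO minus WT and 2.08 in OE minus Lipo), and IGFBP6 (log2 1.16 in KO minus WT and 2.39 in OE minus Lipo). PVT1, a long noncoding RNA, was 1 of the 2 with the larger rise in KO (log2 1.46 in KO minus WT and 0.58 in OE minus Lipo). In the 88 lower in both, 5 fell more in OE, among them SORL1, a sorting receptor (log2 -0.75 in KO minus WT and -1.79 in OE minus Lipo), and 6 fell more in KO, among them FOXQ1, a forkhead factor (log2 -2.72 in KO minus WT and -0.75 in OE minus Lipo), and LPIN2, a phosphatidate phosphatase (log2 -1.67 in KO minus WT and -0.57 in OE minus Lipo).

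Of 24 DNA methylation writers, erasers and readers, 2 were higher and 1 lower in KO, 1 higher (TET1) and 3 lower in OE, and 2 had a higher and 3 a lower KO effect (median difference -0.03, or 0.06 with WT as control of OE). None fell in a direction class. The difference passed for 20.8% of the 24, against 16.6% of all genes. Over all genes, 12.6% passed in KO and 12.3% in OE, so the list lay near the shares over all genes. MBD4, a glycosylase that repairs deaminated methylcytosine, had 121, 104 and 103 CPM in KO, against 86.3, 61 and 64.5 CPM in WT, and 49.2 and 51.4 CPM in OE, against 71.6 and 74.2 CPM in Lipo. The difference was 1.17 (SE 0.22, edgeR adjusted p = 0.00208). CXXC4, a reader of unmethylated CG sites, had 17, 11.5 and 9.83 CPM in KO, against 11.9, 9.20 and 11.2 CPM in WT, and 6.56 and 4.37 CPM in OE, against 12.4 and 14.2 CPM in Lipo (difference 1.53, edgeR adjusted p = 0.00877). Of 39 NRF2, glutathione and aldehyde metabolism genes, 6 were higher and 5 lower in KO, 3 higher and 9 lower in OE, and 9 had a higher and 4 a lower KO effect (median difference 0.12, or -0.14 with WT as control of OE). Of the 39, 2 were higher in KO and lower in OE, against 0.777% of all genes, and 1 (NFE2L3) was lower in KO and higher in OE, against 1.09%. NQO1, a quinone reductase, and TALDO1, transaldolase, were the 2 higher in KO and lower in OE (0.78 and 0.89 in the difference). GSTA4, a glutathione transferase, fell in OE alone (log2 -1.71; difference 2.27), and ALDH1A3, an aldehyde dehydrogenase, in KO alone (log2 -1.50; difference -1.43). The calls of this list were few and moved with single libraries, the 6 higher in KO becoming 1 without WT 2, 2 without WT 3 and 3 without Lipo 3, and the 9 lower in OE becoming 5 without WT 2 and 2 or 3 without any 1 OE or Lipo library. Of 38 ERK feedback and AP-1 genes, 3 were higher and 8 lower in KO, 7 higher and 6 lower in OE, and 3 had a higher and 11 a lower KO effect (median difference -0.25). DUSP5, a phosphatase of ERK, had 15.1, 25 and 20.4 CPM in KO, against 84.1, 70.8 and 68.1 CPM in WT, and 175 and 171 CPM in OE, against 118 and 128 CPM in Lipo. The difference was -2.37 (SE 0.25, edgeR adjusted p = 1.19e-05). DUSP6, another ERK phosphatase, and FOSB, an AP-1 factor, were lower in both. DUSP6 had log2 -1.03 in KO minus WT and -0.68 in OE minus Lipo. FOSB had log2 -0.90 in KO minus WT and -1.82 in OE minus Lipo, and Lipo exceeded WT for it by 1.23. KLF10 rose in OE alone, and HMGA2 fell in KO alone (differences -1.26 and -1.22). The ERK list's 7 higher in OE became 3 or 4 without any 1 OE or Lipo library and 17 with WT as control, the 6 lower in OE became 2 or 3 without any 1 of those libraries, and the 8 lower in KO became 5 without WT 3.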

How the data were processed

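RNA of H441 cells was measured in 10 libraries, labelled as KO (n = 3), WT (n = 3), OE (n = 2) and Lipo (n = 2). Per the labels' protocols, 1.0 µg of total RNA went into a strand-preserving low-input total RNA kit. The authors deposited 1 table of raw read counts per gene. Per the submitters' processing notes, HISAT2 2.1.0, FastQC, featureCounts, edgeR and GRCh38 were used, and the strand setting of the counting is not given in the sources used here, so that overlapping or antisense genes can share reads. Of the table's columns, 2 matched none of the labelled samples and were not used, and 1 gene row without values was left out, leaving 62709 rows.

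One model with a term per group was fitted to the deposited counts with edgeR 4.0.16 in R 4.3.3 (quasi-likelihood test, TMM scaling, 6 residual degrees of freedom) over the 15832 genes that passed edgeR's filter on low counts. KO minus WT, OE minus Lipo and their difference were contrasts of that fit, with Benjamini-Hochberg adjustment over all genes tested and a threshold of 0.05. CPM per library are counts over the TMM-scaled total (edgeR's CPM). Fold bounds against a group without reads use a floor of 3 reads over the group and cover counting error only. The labels do not say that replicates were separate cultures, so p-values measure the spread between these libraries, which may be technical. The main fit did not pair the samples by replicate number, and the fit with these numbers as a block is given in the closing section.

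The genes, classes and lists were chosen with earlier results of these data known. Named genes were TET1, TET2 and TET3, 7 genes of each class, and up to 3 members of each list with the smallest p of a passing difference. The 7 had the largest smaller one of both fold changes, among genes with an average log2 CPM of at least 1 and groups not overlapping. Pseudogenes and clone names were left out, and in the opposite classes the difference had to pass. Other named genes were chosen after their values were seen. The fit was tested on simulated counts. DESeq2 1.42.0, scaling by RLE or by library size alone, other filters, WT as control of OE, separate fits and leaving out each library were tried as alternatives. Promoter windows came from RefSeq. Promoter features were computed per class but are not compared here, since fewer than 80% of the protein-coding genes of 3 classes matched a window.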

Additional observations from a re-analysis of the deposited data

How the results depend on the processing

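The opposite-direction count of 296, the same-direction count of 134 and the difference count of 2632 stayed within 1.5 times under RLE scaling (297, 131 and 2631), library size alone, DESeq2 (379, 184 and 2974), no filter, a stricter filter and without mitochondrially encoded genes. With each library left out, the difference passed for 1373 to 3023 genes (higher 510 to 1324, lower 850 to 1699), 122 to 371 were opposite (KO higher and OE lower 40 to 156, KO lower and OE higher 75 to 215) and 42 to 208 the same (both higher 22 to 74, both lower 19 to 134). The low ends came without an OE or Lipo library, which leaves 1 library in that group, assumed to vary like the others. Replicate numbers gave correlations of 0.328, 0.058 and 0.185 between KO and WT and 0.004 between OE 2 and Lipo 2. Whether the numbers mark a pairing of samples was not tested. With a replicate block, 460 were opposite (188 and 272), 237 the same (81 and 156) and 3402 differences passed. A change of at least 2-fold in both left 92 opposite (25 and 67) and 38 same-direction genes (14 and 24). With each comparison fitted alone, 383 were opposite and 207 the same, and 160 of the 207 were lower in both. List counts moved in this fit too. Of 24 alveolar type 2 and club cell genes, 18 were then lower and 3 higher in OE. Of 37 ERK feedback and AP-1 genes, 19 were higher and 13 lower in OE. With WT as control of OE, which then shares its control with KO, 344 were opposite and 305 the same, and the difference passed for 5921 genes (2886 higher, 3035 lower); the cause was not tested. Without the genes called in Lipo minus WT, an alternative added after seeing the data, 247 were opposite and 115 the same.

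Of 1813 refits of the differences of 101 named genes, 1780 kept direction and call, 10 lost and 7 gained the call, and 16 turned sign; no gene that turned had a called difference. With WT as control, MMP9 turned to 1.18, SFTPB to 0.74, CIITA to -0.49, CLDN10 to -0.68 and TET3 to 0.21. With the block, CCN2 turned to 0.46 and the CLDN10 difference to -0.0052. With a library left out, CCN2 ran from -0.48 to 0.66 (without KO 1 0.11, KO 3 0.16, WT 1 0.66 and OE 1 0.05), CLDN10 from -0.11 to 0.20 (without KO 1 -0.11, WT 2 -0.05, OE 1 -0.06 and Lipo 3 -0.11), and B4GALT6 from -0.12 without OE 1 to 0.67; the cause was not tested.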

Other observations

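Several gene groups outside the lists above held differences of both signs; their counts were not recomputed with libraries left out, and these genes were chosen after their values were seen. Complement genes split. C3, the central complement protein, stood at 5.14 ± 1.51 CPM in KO, 5.91 ± 1.13 CPM in WT, 139 ± 1.08 CPM in OE and 3.09 ± 0.66 CPM in Lipo (SD, n = 3, 3, 2 and 2; difference -5.69, edgeR adjusted p = 4.27e-08). CD46, a membrane cofactor that inactivates complement, fell in OE alone, with 144 ± 1.06 CPM in OE and 304 ± 3.91 CPM in Lipo (difference 1.19, edgeR adjusted p = 3.51e-04). ATP8A1, a phospholipid flippase, was higher in KO and lower in OE, at 41.8 ± 8.89 CPM in KO, 24.2 ± 0.74 CPM in WT, 4.27 ± 0.65 CPM in OE and 17.2 ± 1.59 CPM in Lipo. AQP4, a water channel of lung epithelium, fell in OE (log2 -2.27, edgeR adjusted p = 0.00759), while KO minus WT was 0.82 (edgeR adjusted p = 0.123).

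Of 16 genes known to be methylated in lung cancer, 2 were higher and 5 lower in KO, 2 were higher and none lower in OE, and 1 had a higher and 7 a lower KO effect. TUSC3, part of the complex that attaches N-glycans, had 1 read over the 3 KO libraries, against 866 in WT, and 600 in OE, against 656 in Lipo. TFPI2, a protease inhibitor, was lower in KO and higher in OE (log2 -0.99 and 1.08; difference -2.07). CDH1, the epithelial cadherin, fell in KO alone (log2 -0.75; OE 0.10), and GSTP1, a glutathione transferase, rose in KO alone (log2 0.86; OE -0.27). Of 6 germline genes, 1 was lower in KO and 1 lower in OE, and of 16 imprinted genes 1 was higher and 2 lower in KO and none passed in OE. The difference passed for 16.7% of the germline and 12.5% of the imprinted genes, against 16.6% of all genes. Over all genes, 12.6% passed in KO and 12.3% in OE.

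Chromosome 8, which carried 526 of the 15832 genes tested, carried 9 of the 46 genes higher in both, 6 of the 123 higher in KO and lower in OE, 7 of the 173 lower in KO and higher in OE and 5 of the 88 lower in both. The 9 were PVT1, EXT1, TNFRSF10A, TNFRSF10D, SQLE, GTF2E2, FNTA, ADAM28 and IDO1. This is given as a description, without a test.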
